A study of Mus musculus with 1666 samples.

Results

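Class 3 semaphorins are secreted guidance proteins, and 5 of them (Sema3a, Sema3c, Sema3d, Sema3e and Sema3f) are described here with 5 of their receptor genes, the neuropilins Nrp1 and Nrp2 and the plexins Plxna1, Plxna2 and Plxnd1. These 10 genes were found by symbol among 49662 gene symbols, and they had been chosen by their levels across stages and by their co-expression with Lrig1, so both of these are given as description with no test. The cells came from a study of mouse whisker follicles and were profiled one by one with RamDA-seq, which reads full-length total RNA. Of 1666 labelled cells, 1614 on 18 plates had values, with 94 from E11.5, 276 from E12.0, 267 from E13.0, 181 from E13.5, 177 from E14.0, 350 from E15.0 and 269 from E17.0.

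From E12.0 to E17.0 the cells came from transgenic embryos with a nuclear photo-convertible protein, Kikume Green-Red, that had been switched to red in single whole follicles. They were sorted as ITGA6+/CD31-/kikGR-red+, whereas E11.5 cells were sorted as ITGA6+/CD31- without the red label. The promoter of the transgene is not given in the sources used here, and no embryo or litter is named, so each stage counts as 1 sample and the plates of a stage are not replicates. Cells were called epithelial with Krt5 and Trp63 at 10 or more and Col3a1 under 50 TPM (reads scaled by gene length and by the total of the cell), and fibroblast-like with Col3a1 at 50 or more, Pdgfra at 10 or more and Trp63 under 10 TPM. This gave 1035 epithelial and 417 fibroblast-like cells. All 10 epithelial markers listed had a median of at least 10 TPM in the epithelial cells, where the 8 fibroblast markers summed to a median of 19.9 TPM. By stage this median was 9.09 to 20.9 TPM before E17.0 and 90.7 TPM at E17.0. In the fibroblast-like cells 6 of the 8 fibroblast markers had a median of at least 10 TPM and 7 of the 10 epithelial markers were at a median of 0. At E12.0 there was no fibroblast-like cell and at E13.5 there were 2, so both stages are missing from every statement on that class. Epithelial cells were 19.9% of cells at E13.0 and 96.7% at E12.0, the lowest and the highest stage. Plate 1 of E15.0 stood apart, with 10 epithelial cells among 90, against 53 to 58 on the other 3 plates of that stage. Without that plate, the E15.0 epithelial mean of Nrp1 was 3.69 TPM in place of 4.92 TPM, and the other 9 genes moved by a factor of 0.937 to 1.13; in fibroblast-like cells Sema3c was 2.78 TPM in place of 5.51 TPM and the other 9 moved by 0.824 to 1.204. The plate codes in the sample titles occur at more than 1 stage in 4 cases: plate 1 of E15.0 shares its code with plate 1 of E13.0, and plates 2, 3 and 4 of E15.0 share theirs with plates 1, 2 and 3 of E17.0. From 80 to 86 well names are common to each such pair, and what the code marks is not given in the sources used here. The depth per cell is unknown, since TPM keeps none.

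Neuropilins bind most class 3 semaphorins at the cell surface, and A-type plexins carry the signal into the cell, where it changes the cytoskeleton and adhesion. Sema3a is a ligand best known for its binding to neuropilin 1 and Sema3f for its binding to neuropilin 2, while Sema3e binds plexin D1 without a neuropilin. In skin this family is known for steering sensory axons and vessels. Lrig1 is a transmembrane protein that restrains growth factor receptors and marks stem cells of the upper hair follicle.

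Of the ligand genes, 4 lie within a few megabases of each other on mouse chromosome 5, all on the plus strand of mm10. In GENCODE M21, Sema3d spans chromosome 5 from 12383385 to 12588948, Sema3a from 13125414 to 13602565, Sema3e from 14025276 to 14256689 and Sema3c from 17574281 to 17730268. Sema3f lies on the minus strand of chromosome 9 from 107681500 to 107710475. The receptor genes are spread over 3 chromosomes, with Nrp2 on chromosome 1 from 62703285 to 62818695, Plxna2 on the same chromosome from 194618218 to 194816869, Nrp1 on chromosome 8 from 128358604 to 128503363, Plxna1 on chromosome 6 from 89316314 to 89362620 and Plxnd1 on chromosome 6 from 115954811 to 115995005. Sema3a, Sema3d, Sema3e, Nrp2 and Plxna1 each overlap at least 1 predicted gene on the opposite strand, and reads from such a pair cannot be told apart where counting ignores strand, which is not stated.

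RefSeq promoter windows (250 bases before to 50 after the start, GRCm38.p6) were at hand for 8 of the 10 genes. The windows of 3 are shown because these genes differ most in the results: Nrp2, which ran against Lrig1, and Sema3a and Sema3e, which were lower in Shh-expressing cells, where Nrp2 was higher. Capitals mark CpG dinucleotides, and each window is written 5′ to 3′ on the strand of the gene.
Nrp2 promoter, chr1:62703067-62703366, plus strand: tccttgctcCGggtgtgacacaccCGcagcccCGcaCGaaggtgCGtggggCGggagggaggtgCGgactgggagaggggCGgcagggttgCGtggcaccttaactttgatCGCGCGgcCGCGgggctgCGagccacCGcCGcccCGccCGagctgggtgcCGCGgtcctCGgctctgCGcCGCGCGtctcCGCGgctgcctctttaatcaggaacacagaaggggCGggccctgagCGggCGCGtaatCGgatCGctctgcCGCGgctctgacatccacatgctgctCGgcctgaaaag
Sema3a promoter, chr5:13396534-13396833, plus strand: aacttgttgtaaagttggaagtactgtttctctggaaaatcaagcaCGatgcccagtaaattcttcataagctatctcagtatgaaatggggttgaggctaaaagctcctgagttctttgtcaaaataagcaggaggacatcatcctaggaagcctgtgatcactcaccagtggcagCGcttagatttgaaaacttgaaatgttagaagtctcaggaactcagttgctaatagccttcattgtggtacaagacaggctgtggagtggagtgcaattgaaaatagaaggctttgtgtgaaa
Sema3e promoter, chr5:14025026-14025325, plus strand: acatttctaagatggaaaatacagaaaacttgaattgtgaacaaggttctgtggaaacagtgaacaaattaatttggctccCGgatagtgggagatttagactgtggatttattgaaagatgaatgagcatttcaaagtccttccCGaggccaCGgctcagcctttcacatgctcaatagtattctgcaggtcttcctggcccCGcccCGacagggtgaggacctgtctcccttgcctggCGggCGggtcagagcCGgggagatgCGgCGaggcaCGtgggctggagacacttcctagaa
The Nrp2 window held 37 CpG, more than most, since 4.95% of all 32851 promoter windows held more. By contrast the Sema3a window held 2 and the Sema3e window 11, and the median window held 7. RefSeq places this Sema3a start inside the GENCODE gene rather than at its outer end, so it is 1 of several possible starts. The sequence CTTTGAT, the core bound by TCF/LEF factors, was searched on both strands and occurred once in the Nrp2 window and in none of the other 7, against 3.73% of all windows. The GC box GGGCGG, also searched on both strands, occurred 5 times in the Nrp2 window, 2 times in that of Sema3e and not in that of Sema3a, and 35.7% of all windows held it at least once. These are letter matches and were not tested for binding.

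Among the ligands, Sema3f and Sema3a were the most abundant in epithelial cells, and Sema3a dropped the most between the first stages and E13.0. Sema3a, a repellent for sensory axons, averaged 280 TPM at E11.5, 141 TPM at E12.0, 18.9 TPM at E13.0, 40.8 TPM at E13.5, 36.7 TPM at E14.0, 50.1 TPM at E15.0 and 23.96 TPM at E17.0. The plates of E12.0 lay between 119 and 159 TPM, above the plates of every later stage. At E17.0 the median cell had 1.53 TPM and the highest 712 TPM, and 117 of 180 cells were at 1 TPM or more (95% exact Clopper-Pearson interval 57.6 to 71.9%, counting error only).

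Sema3f, whose product signals through neuropilin 2, averaged 279 TPM at E11.5, 168 TPM at E12.0, 178 TPM at E13.0, 160 TPM at E13.5, 157 TPM at E14.0, 112 TPM at E15.0 and 84.6 TPM at E17.0. The plate ranges of E12.0, E13.0, E13.5 and E14.0 overlapped, and the E17.0 plates (74.6 to 97.9 TPM) lay below all of these. Sema3f was found at 1 TPM or more in 1033 of 1035 epithelial cells, the broadest of the 5 ligands.

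Sema3e, the plexin D1 ligand that guides vessels, went the other way and was lowest at the first stages. It averaged 4.99 TPM at E11.5, 2.89 TPM at E12.0, 15.6 TPM at E13.0, 17.8 TPM at E13.5, 19.6 TPM at E14.0, 18.6 TPM at E15.0 and 24.4 TPM at E17.0. The plate ranges from E13.0 to E15.0 overlapped, and those of E12.0 (2.36 to 3.30 TPM) lay below every later plate. Sema3c, known in heart outflow tract development, had 56.4 TPM at E11.5 and between 9.48 and 23.3 TPM at the later stages. Sema3d, a close relative with roles in neural crest and vessel patterning, had 26.96 TPM at E11.5 and between 11.48 and 17.2 TPM afterwards, and its E12.0 plates (9.89 to 18.4 TPM) overlapped those of every later stage.

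The receptors were led by Plxna1, and the neuropilins showed the widest swings. Plxna1 averaged 151 TPM at E11.5, 104 TPM at E12.0, 146 TPM at E13.0, 117 TPM at E13.5, 114.5 TPM at E14.0, 138 TPM at E15.0 and 199 TPM at E17.0, and it was at 1 TPM or more in all 1035 epithelial cells. Plxna2, the second A-type plexin, had 139 TPM at E11.5 and 32.4 to 50.1 TPM at the later stages. Plxnd1, the receptor for Sema3e, stayed between 13.03 and 17.6 TPM at all 7 stages, and the plates of E13.5 (17.2 to 18.0 TPM) lay above those of E14.0, E15.0 and E17.0, which overlapped each other.

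Nrp2 was low before E13.0, uneven afterwards and high at E13.0. It averaged 5.62 TPM at E11.5, 11.05 TPM at E12.0, 92.02 TPM at E13.0, 21.6 TPM at E13.5, 48.96 TPM at E14.0, 40.9 TPM at E15.0 and 49.7 TPM at E17.0. The E13.0 plates (80.8 to 105 TPM) lay above all other plates, and that stage rests on 53 epithelial cells. The share of epithelial cells with Shh at 10 TPM or more was 24% at E12.0, where Nrp2 was low, 22.6% at E13.0 and 3.14% at E13.5, and the part of this share in the Nrp2 level was not tested. Nrp1 remained the rarest member, with 0.49 TPM at E11.5, 0.61 TPM at E12.0, 1.48 TPM at E13.0, 1.49 TPM at E13.5, 3.37 TPM at E14.0, 4.92 TPM at E15.0 and 4.52 TPM at E17.0. Its median cell was under 1 TPM at every stage, and at E17.0 48.9% of cells were at 1 TPM or more while the highest cell had 64.7 TPM.

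**Figure D1:**
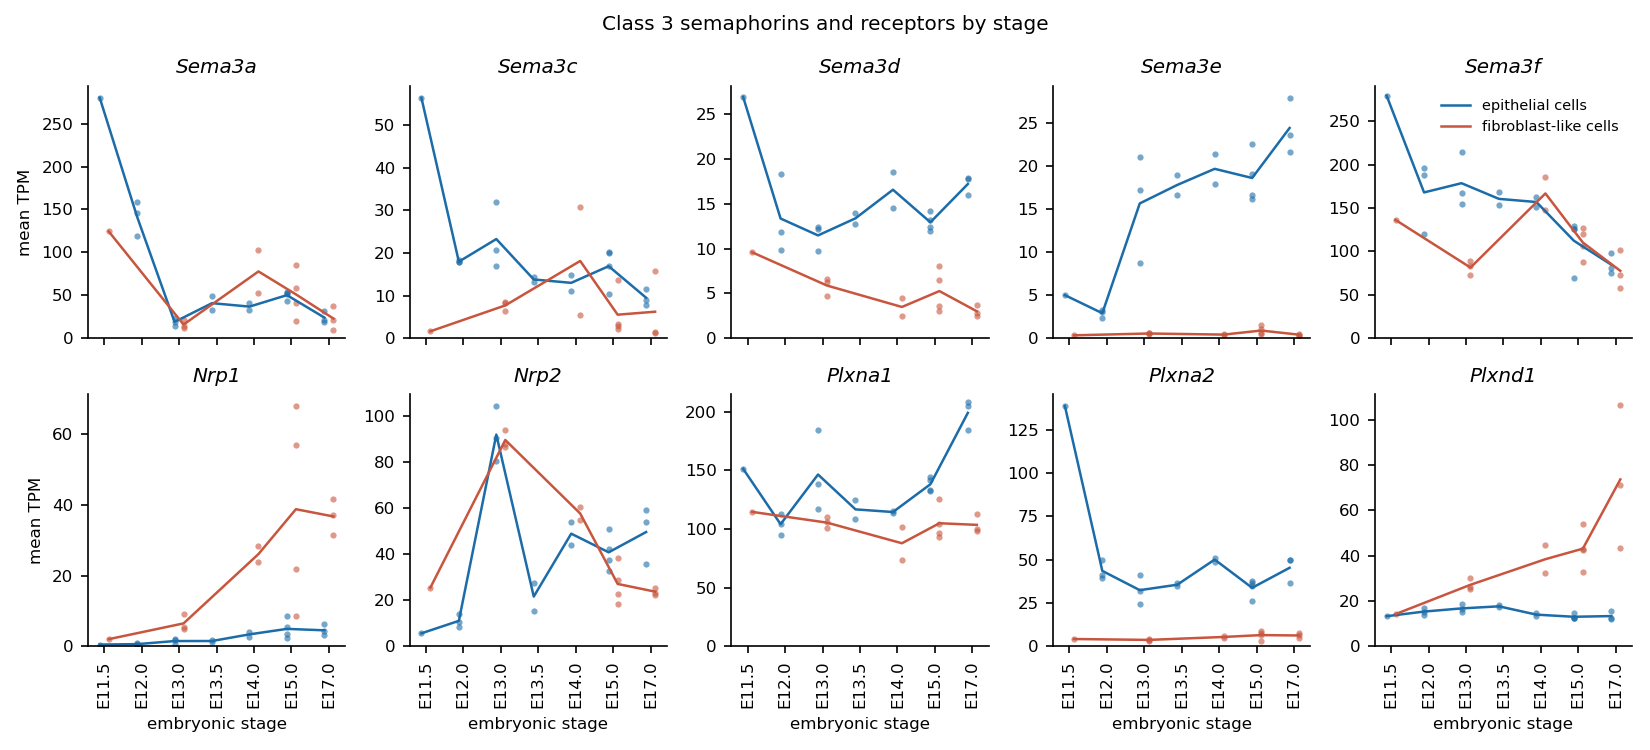
Mean TPM of the 10 genes (y axis, linear, from 0) by embryonic stage (x axis, stages evenly spaced). Points are plates, lines join stage means, blue is epithelial and red fibroblast-like cells; Sema3a drops to 18.9 TPM at E13.0 in epithelial cells, Nrp2 peaks at 92.02 TPM there, and Nrp1 and Plxnd1 climb in fibroblast-like cells.

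E12.0 is the first stage sorted in the same way as E17.0, so these stages were set side by side with a pseudocount of 1 TPM and a call past 2-fold, with no test because each is 1 sample. Between E17.0 and E12.0 epithelial cells, Sema3e (log2 difference 2.70), Nrp2 (2.07) and Nrp1 (1.78) were past 2-fold higher and Sema3a (-2.51) was past 2-fold lower. The Nrp1 difference rests on low levels and was 0.76 with a pseudocount of 5 TPM, short of 2-fold. The fibroblast markers in epithelial cells summed to a median of 90.7 TPM at E17.0 and 19.2 TPM at E12.0. The median number of genes detected in epithelial cells was 16497 at E17.0 and 19489 at E12.0. The part of both in the differences between these stages was not tested. Plxna1 (0.93) was short of 2-fold higher and Sema3f (-0.98) and Sema3c (-0.85) were short of 2-fold lower. The plates of E17.0 and E12.0 did not overlap for these 3. Plates are not replicates and the share of all genes without overlap was not counted, so nothing is read from this. Plxna2 (0.06), Sema3d (0.34) and Plxnd1 (-0.19) had overlapping plates. Over 24674 genes, 7.85% were past 2-fold higher and 13.1% past 2-fold lower, and since these levels chose the genes, nothing is read from the comparison with this share.

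A wider list of 54 genes of the pathway, chosen with earlier results of these data known, held 46 genes that passed the minimum of 1 TPM, of which 8 were past 2-fold higher and 11 past 2-fold lower at E17.0, with a median log2 difference of 0.05 against -0.09 over all genes. The proprotein convertases that cut class 3 semaphorins were among the higher ones. Furin had 195 TPM at E17.0 and 38.4 TPM at E12.0, Pcsk6 had 25.8 TPM at E17.0 and 6.34 TPM at E12.0, and Pcsk5 had 5.18 TPM at E17.0 and 0.89 TPM at E12.0. Sema4b, a membrane-bound class 4 semaphorin, had 30.99 TPM at E17.0 and 7.09 TPM at E12.0. Lower at E17.0 were Crmp1, a cytosolic mediator of Sema3a signalling, with 0.26 TPM against 10.2 TPM at E12.0, Plxnc1, the Sema7a receptor, with 1.41 TPM against 16.2 TPM at E12.0, and Sema5b with 1.45 TPM against 18.9 TPM at E12.0. L1cam, an adhesion protein that joins neuropilin 1 complexes, had 6.71 TPM at E17.0 against 26.98 TPM at E12.0.

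Epithelial and fibroblast-like cells differed throughout in 3 of the 10 genes. Over the 5 stages that hold both classes, Sema3e and Plxna2 were past 2-fold higher in epithelial cells at every stage and Nrp1 was past 2-fold lower at every stage. Sema3e averaged 16.6 TPM over stages in epithelial cells and 0.51 TPM in fibroblast-like cells (mean log2 difference 3.41, range 2.18 to 4.17). Plxna2 averaged 60.1 TPM in epithelial and 5.18 TPM in fibroblast-like cells (mean 3.10, range 2.22 to 4.75). Nrp1 averaged 2.96 TPM in epithelial and 22.03 TPM in fibroblast-like cells (mean -2.15, range -2.77 to -1.02). The same call held for 1.66% of 24166 genes in the higher and 2.04% in the lower direction. With a pseudocount of 5 TPM, Plxna2 alone was past 2-fold at every stage, with mean differences of 1.89 for Sema3e and -1.47 for Nrp1. These classes were set beside each other when the genes were chosen, so this too is a description.

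By cells, Sema3e was at 1 TPM or more in 74.9% of 1035 epithelial cells (72.1 to 77.5%) and in 7.91% of 417 fibroblast-like cells (5.51 to 10.9%). In the fibroblast-like class Nrp1 averaged 2.01 TPM at E11.5, 6.48 TPM at E13.0, 26.1 TPM at E14.0, 38.8 TPM at E15.0 and 36.8 TPM at E17.0. Plxnd1 also climbed there, with 14.2 TPM at E11.5, 27.2 TPM at E13.0, 38.5 TPM at E14.0, 43.1 TPM at E15.0 and 73.7 TPM at E17.0, while the epithelial level averaged 14.8 TPM over its 7 stages. The fibroblast-like Plxnd1 plates of E14.0 (32.4 to 44.5 TPM), E15.0 (32.9 to 53.9 TPM) and E17.0 (43.3 to 107 TPM) overlapped each other. The E15.0 plates were far apart for fibroblast-like Nrp1 (8.50 to 68.01 TPM), so E15.0 has no clear place in the order, while the E17.0 plates (31.4 to 41.7 TPM) lay above those of E14.0 (23.8 to 28.5 TPM). Sema3a, Sema3c, Sema3d, Sema3f, Nrp2, Plxna1 and Plxnd1 were not past 2-fold in 1 direction at every stage, although Plxnd1 was lower in epithelial cells at 5 of 5 (mean log2 difference -1.24, range -2.38 to -0.09). Nrp2 changed sides: at E11.5 it had 5.62 TPM in epithelial and 25.5 TPM in fibroblast-like cells, and at E17.0 it had 49.7 TPM in epithelial and 23.7 TPM in fibroblast-like cells.

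Of the 54-gene list, 50 passed the minimum, 3 were past 2-fold higher in epithelial cells at every stage (Sema3b, Plxnb1 and Mical2) and 4 were lower (Plxna4, Dpysl2, Dpysl4 and Pcsk5), with a median log2 difference of -0.08 against -0.10 over all genes. Plxnb1, a receptor for Sema4d, averaged 125 TPM in epithelial and 24.2 TPM in fibroblast-like cells. Plxna4, an A-type plexin, averaged 0.51 TPM in epithelial and 9.22 TPM in fibroblast-like cells. Mical2, an actin-oxidising enzyme of a family that acts below plexins, averaged 21.1 TPM in epithelial and 6.35 TPM in fibroblast-like cells.

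**Figure D2:**
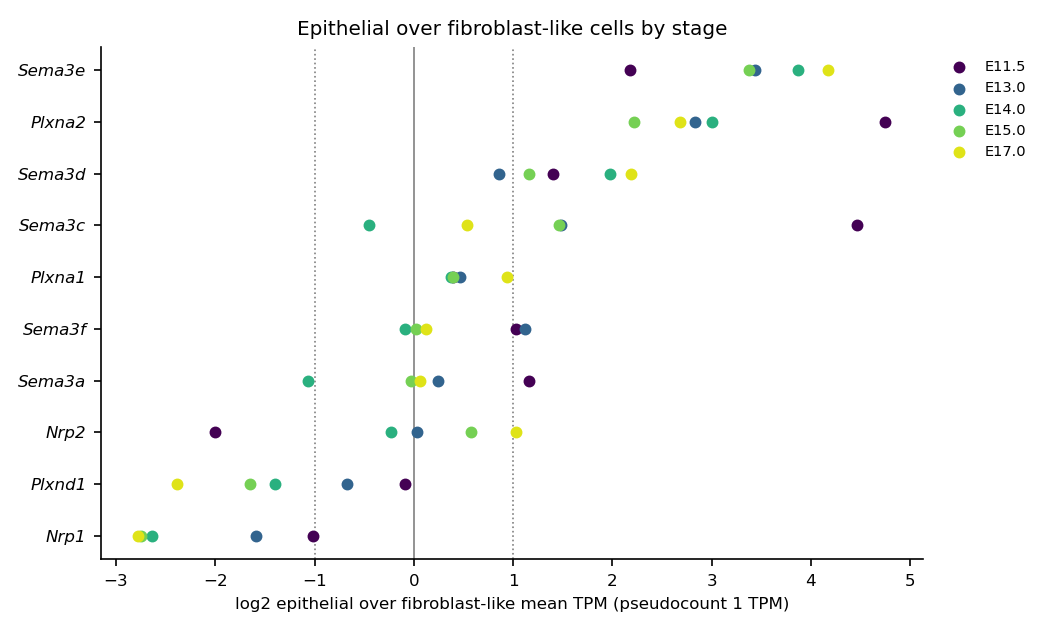
Log2 ratio of epithelial over fibroblast-like mean TPM, with a pseudocount of 1 TPM (x axis), for each gene (y axis); each point is 1 of 5 stages, coloured by stage, and dotted lines mark 2-fold. Sema3e and Plxna2 lie past 2-fold to the right at every stage and Nrp1 past 2-fold to the left, while Nrp2 spans both sides, -2.001 at E11.5 and 1.03 at E17.0.

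Small classes of other cells in the sort were high in Plxnd1 and Nrp1 but not in Plxna1. Endothelial cells (Cdh5 and Pecam1 at 10 or more and Krt5 under 10 TPM) had 1138 TPM of Plxnd1 at E13.5 (7 cells on the 1 plate with at least 5; 1107 TPM over all 10) and 996 TPM at E17.0 (19 cells), against 17.6 TPM and 13.3 TPM in epithelial cells of the same stages. Their Nrp1 level was 71.6 TPM at E13.5 (7 cells; 86.7 TPM over all 10) and 65.05 TPM at E17.0. Their Plxna1 level, 34.3 TPM at E13.5 and 61.3 TPM at E17.0, was below the 117 TPM and 199 TPM of epithelial cells. The 11 neural crest derived cells of E11.5 (Sox10 at 10 or more, Krt5 under 10 and Col3a1 under 50 TPM) had 113 TPM of Plxnd1, 67.3 TPM of Nrp1 and 0.47 TPM of Sema3a, and epithelial cells of that stage had 13.3 TPM of Plxnd1, 0.49 TPM of Nrp1 and 280 TPM of Sema3a. The A-type plexins went the other way, with 102 TPM of Plxna1 and 41.3 TPM of Plxna2 in the neural crest derived cells and 151 TPM of Plxna1 and 139 TPM of Plxna2 in the epithelial cells.

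Whether a cell carries both parts of a receptor was counted next. Plxna1 or Plxna2 was at 1 TPM or more in every epithelial cell, so the neuropilins set the share. A neuropilin with an A-type plexin was found in 803 of 1035 epithelial cells, 77.6% (74.9 to 80.1%), and in 411 of 417 fibroblast-like cells, 98.6% (96.9 to 99.5%). By stage the epithelial share was 55.6% at E11.5 (41.4 to 69.1%), 65.9% at E12.0 (59.9 to 71.6%) and 95.6% at E17.0 (91.4 to 98.1%). Every epithelial cell had at least 1 of the 5 ligands at 1 TPM or more, so each cell with such a receptor pair had a ligand as well. The kind of neuropilin differed: Nrp2 without Nrp1 was found in 45.7% of epithelial cells, Nrp1 without Nrp2 in 7.83% and both in 24.1%, whereas both were found in 56.4% of fibroblast-like cells. Sema3e was found with its receptor Plxnd1 in 67.7% of epithelial cells (64.8 to 70.6%) and in 7.67% of fibroblast-like cells (5.31 to 10.7%). Plxnd1 itself was found in 90.6% of epithelial and 94.7% of fibroblast-like cells. Sema3e was found in 74.9% of epithelial and 7.91% of fibroblast-like cells, so Sema3e set most of the shared count. These shares depend on the level taken as present, and the epithelial share with a neuropilin and an A-type plexin was 58.7% at 5 TPM and 48.6% at 10 TPM. Sema3e with Plxnd1 was found in 39.4% of epithelial cells at 5 TPM and 22.4% at 10 TPM. Both neuropilins were found in 8.02% of epithelial and 28.8% of fibroblast-like cells at 5 TPM. At 10 TPM these were 3.38% of epithelial and 15.8% of fibroblast-like cells.

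Within epithelial cells, Sema3f and Nrp2 lay near opposite ends of the order of genes by correlation with Lrig1. Correlations were taken over cells within plates as partial Spearman values given the number of genes detected, then averaged over the 7 stages (1011 cells on 16 plates), and they carry no p because the genes were chosen on them. Sema3f had a mean correlation of 0.39 with Lrig1, second among 28747 genes, and it was above 0 at 7 of 7 stages, from 0.22 at E13.5 to 0.58 at E13.0. Nrp2 had -0.42, the lowest of all 28747 genes, below 0 at 7 of 7 stages, from -0.55 at E13.0 and E17.0 to -0.18 at E11.5. The other ligands were between: Sema3a 0.26, Sema3e 0.20, Sema3d 0.17 and Sema3c 0.05. Of the remaining receptors, Plxna1 had -0.18, Nrp1 -0.06, Plxna2 -0.01 and Plxnd1 0.03. Over all genes 6.69% reached 0.1 and 5.83% were at -0.1 or less, and because co-expression with Lrig1 chose the members, nothing is read from their count of 4 and 2 against these shares. The cells of each correlation share a plate and the number of genes detected was taken out, but the depth itself is not known.

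In absolute levels, epithelial cells with Lrig1 at 50 TPM or more were set beside those with Lrig1 under 10 TPM, at the 5 stages with at least 5 cells of each (all but E11.5 and E13.0). Nrp2 averaged 17.01 TPM over these stages in the Lrig1-high and 82.97 TPM in the Lrig1-low cells and was lower in the Lrig1-high cells at 5 of 5 stages. At E17.0 this was 22.2 TPM in 81 Lrig1-high and 90.6 TPM in 49 Lrig1-low cells. Sema3f averaged 169 TPM in the Lrig1-high and 97.5 TPM in the Lrig1-low cells, and Sema3a 80.3 TPM in the Lrig1-high and 28.5 TPM in the Lrig1-low cells, both higher in Lrig1-high cells at 5 of 5 stages. Plxna2 averaged 41.96 TPM in the Lrig1-high and 33.96 TPM in the Lrig1-low cells and was higher at 3 of 5 stages.

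**Figure D3:**
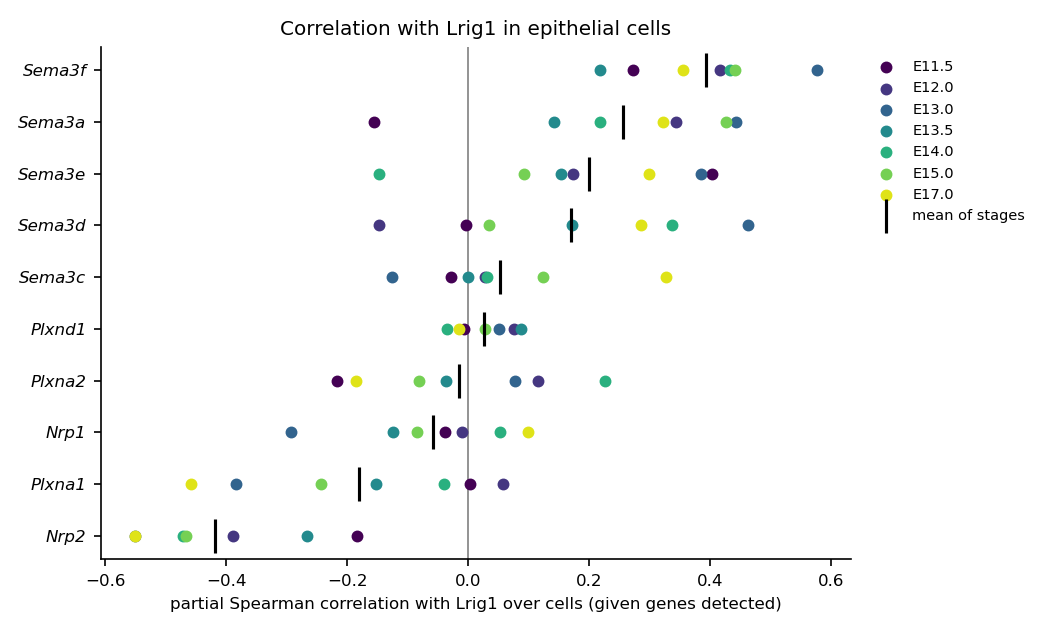
Partial Spearman correlation with Lrig1 over epithelial cells (x axis) for each gene (y axis, sorted by mean). Points are the 7 stages, coloured by stage, and black bars are their mean; Nrp2 lies left of 0 at every stage (mean -0.42) and Sema3f right of 0 at every stage (mean 0.39).

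Sema3f and Sema3a ran against Nrp2 itself. Since co-expression with Lrig1 chose the members, values between members are not independent of that choice. The share of all gene pairs with such values was not counted, so nothing is read from their size. The mean correlation between Sema3f and Nrp2, its receptor, was -0.36 and was below 0 at 7 of 7 stages (-0.45 to -0.29). Sema3a and Nrp2 had -0.38, below 0 at 6 of 7 stages. For the other ligands the values with Nrp2 were smaller and mixed in sign, -0.15 for Sema3d and -0.08 for Sema3c (each above 0 at 2 of 7 stages) and -0.05 for Sema3e (above 0 at 3 of 7). Away from Nrp2, Sema3d and Plxna1 had -0.24, below 0 at 7 of 7. Among the ligands, Sema3c and Sema3d had the highest pair value (0.27, above 0 at 7 of 7 stages). The genes most like each member were found in the same way, leaving out predicted genes, pseudogenes and the symbols of ribosomal proteins, mitochondria and small RNAs. For Nrp2 these were Cux1 (0.54), Lhx2 (0.54) and Tspan18 (0.53), where Lhx2 is a transcription factor of early hair follicle progenitors. For Sema3f the highest was Lrig1 (0.39), then Tgfbr3 (0.34), and for Lrig1 they were Krt15 (0.39), Sema3f (0.39) and S100a11 (0.38). Sema3a was most like Wnt7b (0.45), a Wnt ligand, and Gas1 (0.43), a cell-surface protein that binds Shh. Sema3e was most like Elmo1 (0.60) and Lmcd1 (0.58, over 6 stages), Sema3d like Parp8 (0.47) and Pdgfc (0.37), and Sema3c like Itgb1 (0.28). Among the other receptors the highest values were 0.29 for Plxna1 (Eif5a), 0.29 for Plxna2 (Ghr), 0.20 for Nrp1 (Parp8) and 0.19 for Plxnd1 (Srsf11).

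In fibroblast-like cells (370 cells, 9 plates, 3 stages) the pattern was not the same. Nrp2 had -0.10 with Lrig1 and was above 0 at 1 of 3 stages, Sema3f had 0.01 and Sema3a 0.04, while Sema3c had 0.21, Plxnd1 0.12 and Plxna2 0.11, each above 0 at 3 of 3 stages. The difference between the classes was not tested.

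Shh, the morphogen made by the cells at the leading edge of the growing follicle, was not used in choosing the genes, and cells grouped by it could be tested. Epithelial cells with Shh at 10 TPM or more had far more Nrp2 and less Sema3a, Sema3e and Sema3f than those with Shh under 1 TPM. The test was limma's moderated test on log2(mean TPM + 1) with 1 mean per group and stage, stage as a block, 6 stages (E12.0 to E17.0) and Benjamini-Hochberg adjustment over 23670 genes. Among all genes 0.676% were called higher and 1.36% lower in Shh-expressing cells. Of the 10 members, 1 was called higher and 3 lower. Since Lrig1 was itself lower in the Shh-expressing cells (17.6 TPM against 78.3 TPM in Shh-low cells as means over stages), this contrast is not independent of the pattern with Lrig1.

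Nrp2 had 29.5, 171.2, 192, 240, 167 and 121 TPM in the Shh-expressing cells of the 6 stages in their order from E12.0 to E17.0, against 4.05, 65.9, 15.1, 30.4, 29.9 and 28.8 TPM in the Shh-low cells. It was higher in Shh-expressing cells at 6 of 6 stages, and the groups were closest, as a ratio, at E13.0. The log2 difference was 2.49 (SE 0.26, limma adjusted p = 0.00778). By cells, Nrp2 was at 10 TPM or more in 35 of 64 Shh-expressing cells of E12.0, 54.7% (41.7 to 67.2%), and in 12% of 175 Shh-low cells (7.58 to 17.8%). At each of the 5 later stages it was at that level in 100% of the Shh-expressing cells (5 to 32 cells a stage) and in 30.1 to 64.1% of the Shh-low cells.

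Sema3a had 71.6, 3.04, 2.70, 1.11, 1.22 and 0.90 TPM in the Shh-expressing cells of the same 6 stages, against 172.6, 24.3, 43.3, 40.6, 54.7 and 30.6 TPM in the Shh-low cells. It was lower in Shh-expressing cells at every stage, and from E13.0 on those cells held little of it (log2 difference -3.42, SE 0.42, limma adjusted p = 0.0154). Sema3e had 2.08, 0.51, 3.13, 2.27, 0.66 and 0.64 TPM in the Shh-expressing cells and 3.28, 21.7, 18.3, 21.2, 21.5 and 29.96 TPM in the Shh-low cells. Its groups were close at E12.0 and far apart afterwards (log2 difference -2.89, SE 0.46, limma adjusted p = 0.0293). Sema3f had 130, 128, 116, 84.6, 61.7 and 36.2 TPM in the Shh-expressing cells and 182, 192, 160, 165, 131 and 94.98 TPM in the Shh-low cells. This was a smaller difference, in the same direction at 6 of 6 stages (-0.82, SE 0.14, limma adjusted p = 0.0332).

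Sema3d and Plxna1 missed the threshold, and E12.0 went against the later stages for both. Sema3d averaged 4.94 TPM in Shh-expressing and 15.5 TPM in Shh-low cells and was higher in Shh-expressing cells at E12.0, at 1 of 6 stages (log2 difference -2.06, SE 0.51, limma adjusted p = 0.0816). Plxna1 averaged 212 TPM in Shh-expressing and 126 TPM in Shh-low cells and was higher at 5 of 6 stages (0.69, SE 0.18, limma adjusted p = 0.0947). Without E12.0, 2 members were called higher and 4 lower, and of all genes 2.97% were called higher and 5.36% lower. Sema3c, Nrp1, Plxna2 and Plxnd1 did not pass either. In the pathway list 44 genes were tested and 1 was called: Fyn, a kinase that acts below plexin A, averaged 39.5 TPM in Shh-expressing and 18.4 TPM in Shh-low cells (1.13, SE 0.18, limma adjusted p = 0.0293).

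The calls of Sema3a, Sema3e and Sema3f were lost when single stages were left out. Without E13.5, E14.0, E15.0 or E17.0 in turn, Nrp2 was the 1 member still called and Sema3a had an adjusted p of 0.0523 to 0.0624 by limma. Calls over all genes fell as well, to 0.0967 to 0.171% higher and 0.0673 to 0.109% lower in these fits. Without E13.0, Nrp2 and Sema3a were called, with 0.191% of all genes called higher and 0.136% lower. With no minimum level no member was called (limma adjusted p = 0.0596 for Nrp2), and with no stage block Sema3a and Sema3e were (0.0523 for Nrp2). Among cells with Lrig1 under 10 TPM in both groups, an alternative added after the data were seen with 4 stages, Nrp2 had 143 TPM in Shh-expressing and 35.8 TPM in Shh-low cells (2.13, SE 0.24, higher at 4 of 4 stages, limma adjusted p = 0.118), and no gene of the table was called there. In this fit Sema3a had -2.89, Sema3e -3.21 and Sema3f -0.69, with limma adjusted p of 0.192 to 0.232. Its 4 stages were E12.0, E14.0, E15.0 and E17.0, with 8 to 27 Shh-expressing and 10 to 18 Shh-low cells a stage. The fit in all cells used 6 stages, so the sizes of the differences cannot be compared directly. By stage, the epithelial marker list summed to medians of 703 to 1188 TPM in the Shh-expressing cells and 945 to 2724 TPM in the Shh-low cells. It was lower in the Shh-expressing cells at 6 of 6 stages, least so at E12.0 (794 TPM against 945 TPM in Shh-low cells), 9 of the 10 markers had a median of 10 TPM or more in Shh-expressing and 10 of 10 in Shh-low cells, and the part of this in the results was not tested. The fibroblast list summed to a median of 16.7 TPM in Shh-expressing and 21.3 TPM in Shh-low cells. The median number of genes detected was 16043 to 20187 per stage in the Shh-expressing and 16636 to 19097 in the Shh-low cells.

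**Figure D4:**
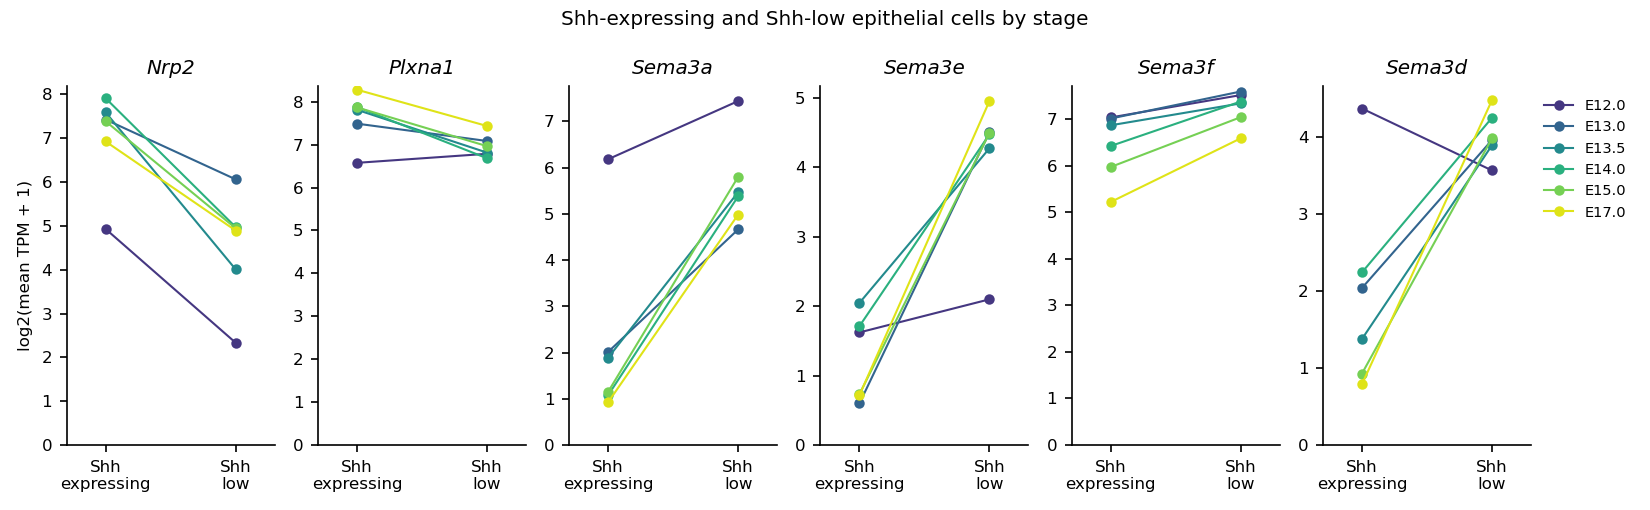
Log2(mean TPM + 1) (y axis, from 0, separate scale per gene) in Shh-expressing (left) and Shh-low (right) epithelial cells; each line is 1 of 6 stages, coloured by stage. Nrp2 slopes down to the right at 6 of 6 stages and Sema3a, Sema3e and Sema3f slope up at 6 of 6, while Plxna1 and Sema3d turn at E12.0.

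Sox9 marks follicle stem cell precursors. Cells with Sox9 at 10 TPM or more were set against those under 1 TPM at 5 stages (all but E11.5 and E13.0). The Sox9-high groups held 89 to 149 cells a stage and the Sox9-low groups 6 to 46. How far these groups share cells with the Shh groups was not examined. No gene was called, 0% in either direction over 23485 genes, although 5295 had an unadjusted p under 0.05 by limma, and 6 of the 10 members did. Sema3e averaged 20.02 TPM in Sox9-high and 3.25 TPM in Sox9-low cells and was higher at 5 of 5 stages (log2 difference 2.08, SE 0.41, limma adjusted p = 0.116). Nrp2 averaged 25.6 TPM in Sox9-high and 109 TPM in Sox9-low cells and was higher at 1 of 5 stages (-1.58, SE 0.51, limma adjusted p = 0.157). Without E12.0, 4.89% of all genes were called higher and 2.19% lower, and 4 members were called in this fit: Sema3e (2.57, limma adjusted p = 0.00617), Sema3a (1.99, limma adjusted p = 0.0422), Nrp2 (-2.21, limma adjusted p = 0.0105) and Plxna1 (-0.73, limma adjusted p = 0.0194). At the stages kept in this fit, Lrig1 had 66.2 to 81.01 TPM in Sox9-high and 18.7 to 39.9 TPM in Sox9-low cells. At E12.0 it had 26.96 TPM in Sox9-high and 39.1 TPM in Sox9-low cells. This contrast is therefore not independent of the pattern with Lrig1 on which the genes were chosen.

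Krt79 marks cells of the upper follicle that open its canal, and cells with it at 10 TPM or more were compared with those under 1 TPM at 4 stages (E13.0 to E15.0). None of the 10 members was called, against 0.178% of 23037 genes higher and 0.109% lower. An unadjusted p under 0.05 by limma was found for 6 of the 10 members and for 3299 of all 23037 genes. Plxna2 averaged 24.7 TPM in Krt79-expressing and 42.3 TPM in Krt79-low cells and was lower at 4 of 4 stages (-0.76, SE 0.13, limma adjusted p = 0.0911). Nrp1 averaged 0.74 TPM in Krt79-expressing and 2.65 TPM in Krt79-low cells, also lower at 4 of 4 (-1.04, SE 0.19, limma adjusted p = 0.0999). With each cell rescaled to protein-coding genes, where 0.883% of all genes were called higher and 0.752% lower, both were called (limma adjusted p = 0.0444 for Plxna2 and 0.0379 for Nrp1). The median number of genes detected was lower in Krt79-expressing cells at 4 of 4 stages. At E13.0 it was 15239 in Krt79-expressing and 17789 in Krt79-low cells, and at E14.0 it was 17302 and 17475.5. The part of this in the results was not tested. Lrig1 had 72.4 TPM in Krt79-expressing and 121 TPM in Krt79-low cells at E13.0. From E13.5 to E15.0 it had 92.1, 165 and 104 TPM in Krt79-expressing and 63.6, 66.7 and 55.1 TPM in Krt79-low cells. This contrast is therefore not independent of the pattern with Lrig1 on which the genes were chosen.

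Cycling cells, with Mki67 and Top2a both at 10 TPM or more, were compared with cells in which both were under 10 TPM, a limit set after seeing that the lower limit of 1 TPM left 9 non-cycling cells at E17.0 and fewer at the other stages. Over 7 stages 6.1% of 23637 genes were called higher and 1.9% lower. Sema3d averaged 11.7 TPM in cycling and 18.4 TPM in non-cycling cells and was lower at 7 of 7 stages (-0.71, SE 0.16, limma adjusted p = 0.0267). Plxna1 averaged 155 TPM in cycling and 127 TPM in non-cycling cells and was higher at 7 of 7 (0.27, SE 0.06, limma adjusted p = 0.0384). Of the 10 members 1 was called in each direction. Leaving out E13.5, E14.0, E15.0 or E17.0 left no member called, with 4.04 to 4.56% of all genes called higher and 0.684 to 0.972% lower. Leaving out E11.5, E12.0 or E13.0 left Sema3d called, with 5.13 to 5.92% of all genes called higher and 1.17 to 1.97% lower. Plxna1 was thus not called in any fit that left out a stage. Nor was it called with protein-coding genes rescaled, with no filter or with no stage block. With both limits at 5 TPM, 0 members were called higher and 2 lower, with 6.03% of all genes called higher and 1.66% lower. The smallest groups were 9 cycling cells at E13.0 and 11 non-cycling cells at E12.0.

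In fibroblast-like cells, Sox2 marks the dermal condensate that lies below the follicle. Cells with Sox2 at 10 TPM or more were compared with cells under 1 TPM at 4 stages (E13.0, E14.0, E15.0 and E17.0). In this order the groups held 75, 10, 35 and 25 Sox2-expressing and 84, 5, 73 and 17 Sox2-low cells. Of the 9 members that passed the minimum level, none was called, against 0.312% of 24388 genes higher and 0.0287% lower. Nrp1 and Sema3f, 2 of the 9, had an unadjusted p under 0.05 by limma, as did 4090 of all 24388 genes. Sema3e was below the minimum. Nrp1 averaged 13.47 TPM in Sox2-expressing and 44.9 TPM in Sox2-low cells and was lower at 4 of 4 stages (-1.62, SE 0.54, limma adjusted p = 0.244; -2.39 and 0.144 without plate 1 of E15.0). Sema3f averaged 74.5 TPM in Sox2-expressing and 144 TPM in Sox2-low cells, lower at 4 of 4 as well (-0.78, SE 0.20, limma adjusted p = 0.168). Plxnd1 averaged 62.1 TPM in Sox2-expressing and 29.2 TPM in Sox2-low cells and was higher at 4 of 4 (0.95, SE 0.38, limma adjusted p = 0.303).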

How the data were processed

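RamDA-seq libraries were made from sorted cells, 1 cell per well. Those of E11.5 were sorted without the red follicle label. The authors deposited TPM values per gene symbol and cell. HISAT2 2.0.4, featureCounts, Subread 1.5.0, bcl2fastq 1.0 and the build mm10 are named in the submitters' processing notes, and the annotation release and strand setting are not given in the sources used here. Columns were joined to labels by title; column totals were 991213 to 999516, no column was unused, and 52 low quality cells had none. Positions and gene types came from GENCODE M21.

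The 10 genes and all lists were chosen with earlier results of these data known. All members, Lrig1, the 3 most like genes per member and pathway genes past a test or 2-fold may be named. Stage means are means over cells of a plate (at least 5), then over plates. Folds used a pseudocount of 1 TPM and genes with a mean of 1 TPM. Contrasts used limma 3.58.1 (R 4.3.3), two-sided, threshold 0.05; their p-values measure the spread between stages, which may be technical, and since no embryo is named they do not cover animals. The limma and correlation steps were tested on simulated data. Correlations used plates with at least 15 epithelial cells and genes at 1 TPM or more in 10% of cells. The planned cycling contrast (both genes under 1 TPM) could not be fitted and was replaced. Intervals cover counting error only. No doublet caller was run on cells sorted to single wells. Alternatives were pseudocounts of 0.1 and 5 TPM, other filters, scaling, class and marker limits, and leaving out plates or stages. Python 3.11.15 with numpy 2.4.6, pandas 2.3.3 and scipy 1.17.1 was used.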

Additional observations from a re-analysis of the deposited data

Results flagged for a closer look

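Over the 4 plates of E15.0, 20 sets of plate means were looked at (10 genes in each class), and 3 held a plate far from the others by Dixon's gap, where chance flags about 1 set in 20. Epithelial Sema3f had 68.9 TPM on plate 1, which holds 10 epithelial cells, and 125 to 129 TPM on the other 3 plates (gap 0.933 of the range). Epithelial Plxnd1 had 14.8 TPM on plate 3 and 12.3 to 12.6 TPM on the others (gap 0.868). Fibroblast-like Sema3c had 13.7 TPM on plate 1, which holds 73 fibroblast-like cells, and 2.22 to 3.29 TPM on the others (gap 0.906).

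Sema3a and Nrp2 changed sides between the classes at different stages. The log2 difference of epithelial over fibroblast-like cells was 1.16 for Sema3a at E11.5 and -1.06 at E14.0. For Nrp2 it was 1.03 at E17.0 and -2.001 at E11.5. These differences between stages were not tested, since each stage is 1 sample, and E11.5 lacked the red label in its sort.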

How the results depend on the processing

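The counts of members past 2-fold between E17.0 and E12.0 and of members correlated with Lrig1 at 0.1 or more stayed within 1.5 times under every alternative run; leaving out 1 plate at a time gave 4 to 6 members for the first, and leaving out 1 stage at a time gave 4 for the second. No called member reversed its direction under any alternative run. Against fibroblast-like cells, a pseudocount of 5 TPM left 1 member called (Plxna2) of 3, and leaving out single plates gave 3 to 4. The epithelial share with a neuropilin and an A-type plexin was 58.7% at 5 TPM and 48.6% at 10 TPM. In the Shh contrast 4 members were called. There, no filter on low values gave 0 (25 of all genes), no stage block gave 2 and Lrig1 under 10 TPM in both groups gave 0. Leaving out 1 stage gave 1 to 6, with 0.0967 to 2.97% of all genes called higher and 0.0673 to 5.36% lower. In the Sox9 contrast leaving out 1 stage gave 0 to 4 members, with 0 to 4.89% of all genes called higher and 0 to 2.19% lower. In the Krt79 contrast rescaling to protein-coding genes gave 2. In the cycling contrast 2 members were called, while no filter and no stage block each gave 0 and protein-coding genes rescaled gave 1. Leaving out 1 stage there gave 0 to 1, with 4.04 to 5.92% of all genes called higher and 0.684 to 1.97% lower. No member was called in the Sox2 contrast under any alternative run. Leaving out a stage also changes the degrees of freedom, and the causes of the changed counts were not tested. The groups within a stage were paired by stage in every contrast but the one with no stage block. Across stages, replicate numbers follow accession order. No paired analysis was possible because E17.0 and E12.0, the stages compared, share no plate code. Leaving out plate 1 of E15.0, added after the data were seen, changed no count of members called in the 5 contrasts. The depth of a cell is unknown, so low values such as those of Nrp1 cannot be told from missed detection.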
